A study of Homo sapiens with 4 samples.

Results

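The baseline transcriptome of NUGC3, a human gastric cancer cell line, is described here from its 2 scramble control libraries. Genes were chosen as the rows of the expression table with an Ensembl gene identifier and the biotype protein-coding. That gave 20269 genes, of 53777 rows with an Ensembl identifier and 344810 rows in all. RNA was sequenced from cells transfected with a scramble control, a hairpin sequence with no intended target, in a study that also lowered NIPBL, which loads the cohesin ring onto chromosomes. Both scramble labels include DOX and combined, which stay unexplained. Scramble 2 is labelled like scramble 1 apart from a suffix R1, possibly the sign of a repeat, and nothing in the labels says that the libraries came from separate cultures. The spread between them may therefore be technical. Values are FPKM, a read abundance per transcript length and library size, so levels can be compared roughly between genes. Genes that are very short, overlap others or have close copies compare less surely. A gene is called on at a mean of 1 FPKM or more and off below it. Paired values are given in the order scramble 1, scramble 2. There is 1 group of libraries, so no test was made.

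Gastric epithelium is built from surface mucous cells, neck mucous cells, acid-secreting parietal cells, enzyme-secreting chief cells and hormone-secreting endocrine cells. Each makes a characteristic set of abundant secreted or membrane products, under gut transcription factors of the GATA, FOXA, HNF and SOX families. Simple epithelia, such as that of the gut, are held by the keratin pair KRT8 and KRT18, while stratified epithelia use KRT5 and KRT14 in their basal layer under the transcription factor TP63. Tumour cell lines often keep the junctions and keratins of an epithelium after losing the secreted products of the organ.

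Of the 20269 protein-coding genes, 11391 were on, which is 56.2%, and 8878 were off. The off genes comprised 4516 listed at 0 in both libraries and 4362 above 0. Scramble 1 alone had 11403 genes at 1 FPKM or more and scramble 2 had 11388, and 11262 reached it in both. The median of the genes on was 15.2 FPKM. The 905 genes at 100 FPKM or more made up 4.46% of genes and held 66.6% of protein-coding FPKM. The 6258 genes from 10 to 100 FPKM held 30.1%, the 4228 genes from 1 to 10 FPKM held 3.20%, and the genes off together held 0.143%.

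The libraries lay close to each other. Of the genes on, 97.8% were within 1.5-fold between them, and the SD of the log2(FPKM + 1) difference was 0.17. The median coefficient of variation over the 2 libraries was 6.41% for genes from 1 to 10 FPKM, 3.03% from 10 to 100 FPKM and 1.76% above. Summed FPKM was 739335 and 730732 over all rows, of which 88.2% was protein-coding in each library. FPKM does not give the number of reads, so the depth is unknown. NIPBL, read as a check of the labels, was at 23.92 and 23.11 FPKM here, and the libraries with hairpins against it had 7.27 and 9.17 FPKM.

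**Figure D1:**
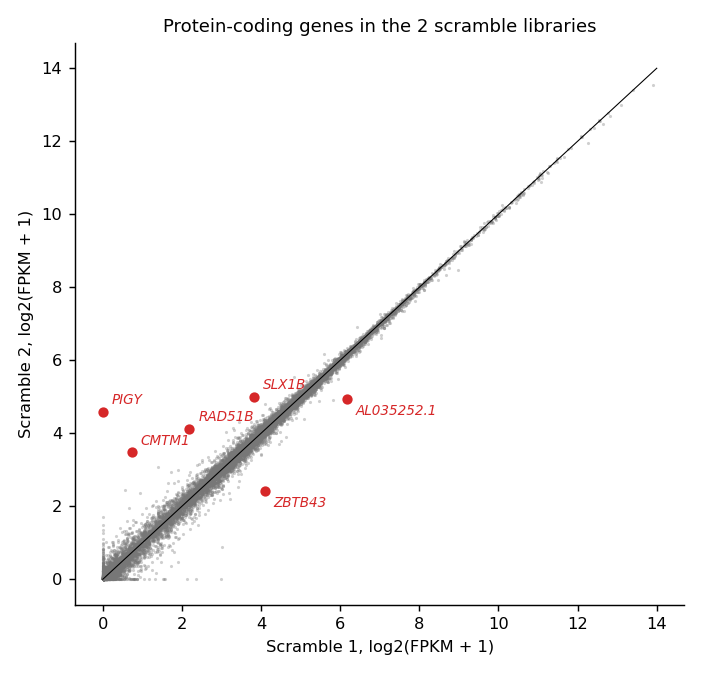
Each point is a protein-coding gene, with log2(FPKM + 1) in scramble 1 on the horizontal axis and in scramble 2 on the vertical axis, and the line marks equal values. Points lie along the line, and the 6 named genes in red, each with a mean no lower than 5 FPKM, have the largest ratios between the libraries.

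A few genes did differ between the libraries. PIGY, which encodes a subunit of the enzyme that starts GPI anchor synthesis, was listed at 0 in scramble 1 and at 23.1 FPKM in scramble 2. CMTM1 was at 0.66 and 10.1 FPKM, and the recombination gene RAD51B at 3.54 and 16.4 FPKM. The zinc finger gene ZBTB43 went the other way, with 16.1 and 4.35 FPKM, as did AL035252.1 with 71.1 and 29.5 FPKM. SLX1B, which encodes a subunit of a structure-specific nuclease and has a near-identical copy, was at 13.1 and 31.0 FPKM. These 6 genes had the largest ratios between the libraries once genes with a mean under 5 FPKM were left out, and what separates them was not tested.

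The most abundant transcripts were those of mitochondria, ribosomes and the cytoskeleton. The 13 protein-coding genes of mitochondrial DNA were all on and held 10.3% of protein-coding FPKM, and the 77 genes of cytosolic ribosomal proteins were all on and held 18.3%. Of the 30 highest genes, 9 were mitochondrially encoded, 12 encoded ribosomal proteins and 9 were others. The 10 highest genes held 11.8% of protein-coding FPKM and the 100 highest held 37.5%. It took 247 genes to reach 50%.

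MT-ATP8, which encodes a small subunit of ATP synthase, was the highest gene, at 15442 and 11951 FPKM. Its reading frame overlaps that of MT-ATP6, at 7164 and 6669 FPKM, so the reads of the 2 genes cannot be fully told apart. MT-ND4L, a subunit of complex I, followed among mitochondrial genes at 8708 and 8098 FPKM, and MT-CO1, the catalytic subunit of cytochrome oxidase, was at 7011 and 7065 FPKM. RPL39 led the ribosomal protein genes at 5946 and 5988 FPKM, ahead of RPS21 at 5450 and 5253 FPKM. Ribosomal protein genes have many near-identical processed copies in the genome, which makes their individual values uncertain.

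Among the 9 other genes of the top 30, TMSB4X, which encodes the actin-binding peptide thymosin beta-4, stood at 10818 and 10915 FPKM (mean 10867 ± 68.4, SD, n = 2). Its relative TMSB10 was at 2230 and 2346 FPKM. The cytoplasmic actins that these peptides bind, ACTB and ACTG1, were at 3002 and 2963 FPKM and at 2849 and 3005 FPKM. EEF1A1, which delivers transfer RNA to the ribosome, was at 6036 and 5959 FPKM, the ferritin heavy chain gene FTH1 at 4376 and 4538 FPKM, the prolyl isomerase gene PPIA at 3667 and 3627 FPKM and the glycolytic gene GAPDH at 2488 and 2580 FPKM. All of these are housekeeping genes of most cells.

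The remaining gene of the 9 was S100A9, a calcium-binding protein best known from neutrophils and inflamed squamous epithelium. It ranked 14 of all protein-coding genes, at 4382 and 4429 FPKM (mean 4405 ± 33.5, SD, n = 2), above ACTB and GAPDH in both libraries. Its usual partner S100A8, with which it forms calprotectin, was at 49.8 and 50.2 FPKM. The ratio of the S100A9 to the S100A8 mean was 88.2, and it was 88.0 and 88.3 in the libraries taken alone. S100A8, and the genes in the next paragraph that are in no list, were picked after their values were seen.

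Other genes of epithelial and secretory character stood within the 150 highest. S100A2, an S100 gene of basal epithelia, was at 1559 and 1481 FPKM. Further S100 genes were S100A11 at 1263 and 1266 FPKM and S100A6 at 1237 and 1164 FPKM. LCN2, an iron-siderophore-binding protein secreted by inflamed epithelia, was at 1017 and 980 FPKM, ranking 95. IGFBP3, a secreted carrier of insulin-like growth factors, was at 696 and 721 FPKM, and F3, the tissue factor that starts blood clotting, at 597 and 593 FPKM, ranking 134 and 150.

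**Figure D2:**
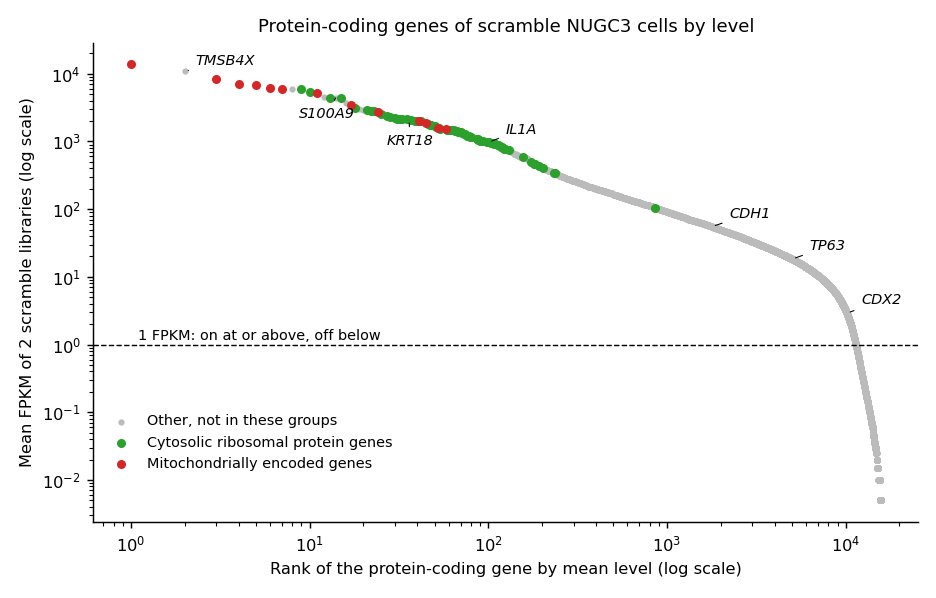
Protein-coding genes are ordered by mean FPKM over the 2 scramble libraries, with rank on the horizontal and mean FPKM on the vertical axis, both on log scales; genes at 0 are not drawn. Mitochondrially encoded genes (red) and ribosomal protein genes (green) crowd the top, S100A9 lies at rank 14 among them, and the curve crosses 1 FPKM after 11391 genes.

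To ask which cell identity the transcriptome carries, 50 gene lists with 1143 entries were read against the share of 56.2% for all protein-coding genes. Of the 1069 distinct list genes with a row, 452 were on, which is 42.3%. In 16 of the 50 lists the share on was above that of all protein-coding genes. The lists differ in how widely their genes are used across the body, so these shares describe the lists and compare no list with another.

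**Figure D3:**
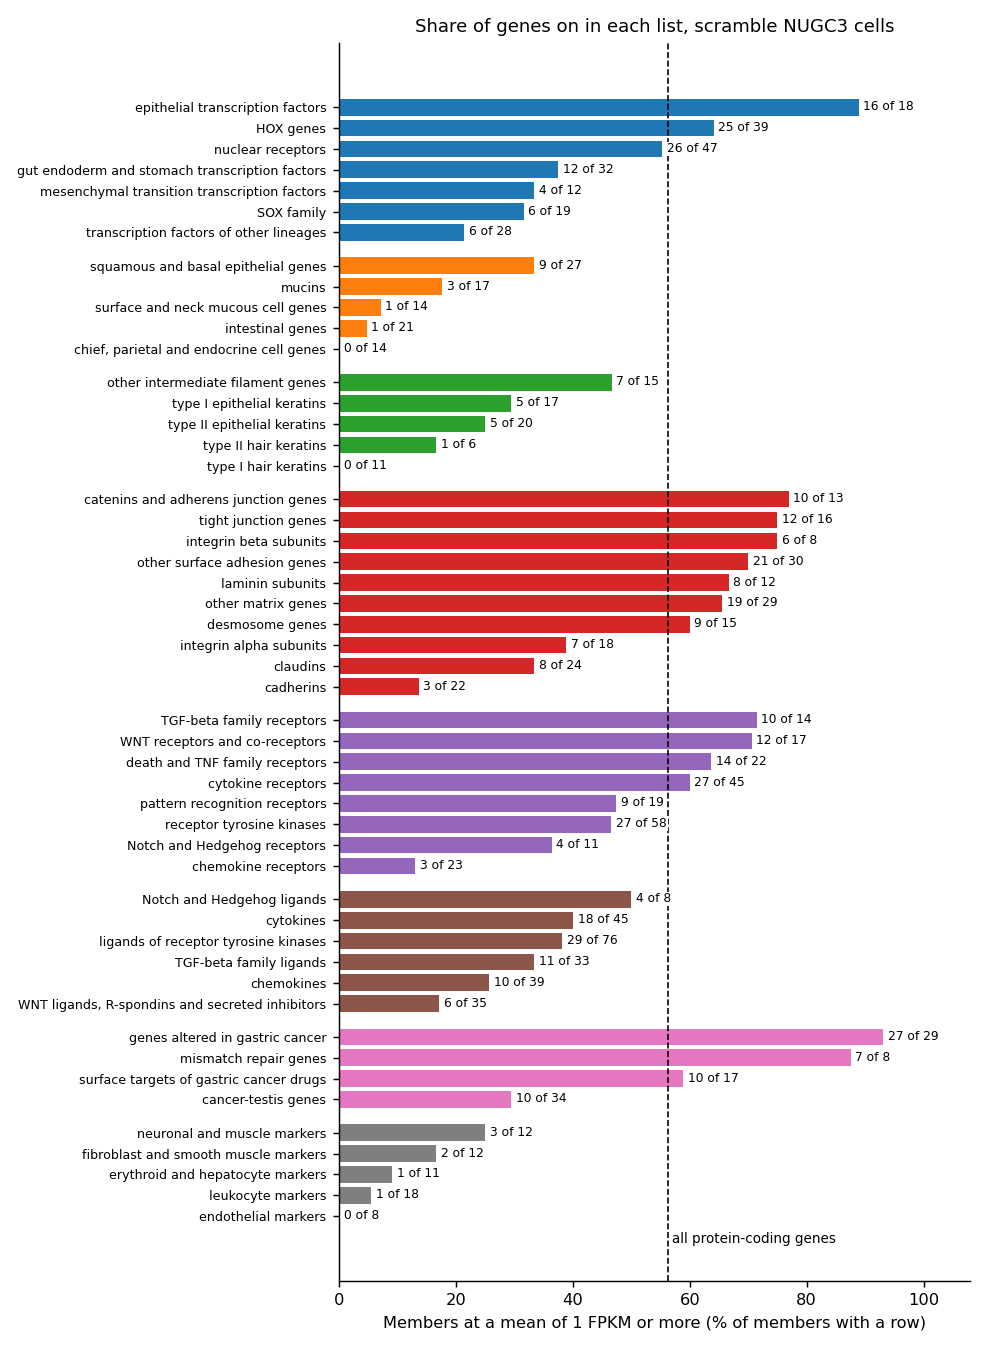
Bars give the percentage of each list's members with a mean of 1 FPKM or more in the scramble libraries, with the counts beside them and colours for the 8 kinds of list; the dashed line is the 56.2% of all protein-coding genes. Epithelial transcription factors and the catenin, desmosome and tight junction lists lie to the right of the line, claudins and cadherins to its left, while products of stomach and intestinal cells lie near 0.

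Epithelial transcription factors were on in 16 of 18 cases (88.9%). EHF and ELF3, epithelium-specific ETS factors, were at 74.5 and 73.0 FPKM and at 42.3 and 43.6 FPKM. KLF5 was at 38.2 and 39.2 FPKM, and GRHL2, a regulator of junction genes, at 29.6 and 30.4 FPKM. TFAP2A, an AP-2 factor of surface ectoderm, was at 28.3 and 26.3 FPKM. The exceptions were ELF5, at 0.02 and 0 FPKM, and GRHL3, listed at 0 in both libraries. TP63, the master factor of basal and squamous epithelium, was on at 18.47 and 18.04 FPKM.

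Gut endoderm and stomach factors were on in 12 of 32 cases (37.5%), below the background share. SOX9, a factor of gut progenitor cells, was at 38.4 and 38.3 FPKM and was the sole member at 10 FPKM or more. The others on lay under that level. The pioneer factor FOXA1 was at 8.83 and 7.93 FPKM, FOXQ1 at 8.16 and 8.84 FPKM and HHEX at 8.93 and 7.63 FPKM. GATA6 and GATA4, factors of the foregut epithelium, were at 7.89 and 8.86 FPKM and at 5.73 and 5.28 FPKM. The intestinal factor CDX2 was at 2.80 and 2.99 FPKM, while its relative CDX1 was listed at 0.

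Other factors of gastric and foregut development were split between on and off. NKX6-3, a factor of the stomach antrum, was on at 3.66 and 3.19 FPKM, and FOXA2 (picked after its value was seen) at 1.73 and 1.58 FPKM. HNF4A was at 0.15 and 0.05 FPKM. SOX2, a foregut and stomach factor, was at 0.17 and 0.17 FPKM. PDX1, a factor of antrum, duodenum and pancreas, lay at the line, with 1.16 and 0.83 FPKM. BARX1, which acts in stomach mesenchyme, was at 0.03 and 0.04 FPKM. In all, 7 of the 32 members were listed at 0 in both libraries.

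The factors that drive epithelial-mesenchymal transition were on in 4 of 12 cases (33.3%). SNAI2 was at 6.70 and 7.56 FPKM and SNAI1 at 1.28 and 1.29 FPKM, and the forkhead factors FOXC1 and FOXC2 at 6.36 and 7.58 FPKM and at 1.24 and 1.38 FPKM. ZEB1, which represses CDH1, was at 0.03 and 0.02 FPKM, and ZEB2, TWIST1, TWIST2 and PRRX1 were listed at 0 in both libraries. SNAI2 is itself also a factor of basal epithelial cells.

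Factors of other lineages were on in 6 of 28 cases (21.4%). PAX6, a factor of eye, brain and endocrine cells, was the highest at 8.12 and 9.44 FPKM. SALL4, an embryonic stem cell and germ cell factor, was at 5.49 and 5.41 FPKM, the melanocyte factor MITF at 5.26 and 5.21 FPKM and GATA3 at 5.26 and 4.67 FPKM. The pluripotency factors POU5F1 and NANOG were off, at 0.88 and 0.75 FPKM and at 0.03 and 0.04 FPKM. Of the SOX family 6 of 19 members were on, with SOX13 at 28.7 and 30.03 FPKM and SOX7 at 11.4 and 11.7 FPKM beside SOX9.

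HOX genes, which record position along the body axis, were on in 25 of 39 cases (64.1%). The HOXA cluster was on in full, 11 of 11 genes, against 6 of 10 in HOXB, 6 of 9 in HOXC and 2 of 9 in HOXD. HOXC10, a gene of posterior position, was the highest at 18.8 and 18.1 FPKM, followed by HOXB7 at 11.97 and 12.05 FPKM. HOXA10 was at 8.01 and 7.46 FPKM. Among HOXD genes none passed 2.45 FPKM in the mean. Nuclear receptors were on in 26 of 47 cases (55.3%), with the retinoid partner RXRA at 35.7 and 34.2 FPKM, NR2F6 at 26.0 and 26.0 FPKM and ESRRA at 21.4 and 21.5 FPKM. The oestrogen receptor gene ESR1, at 0.20 and 0.19 FPKM, and the progesterone receptor gene PGR, listed at 0, were off.

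The products that mark differentiated stomach cells were almost entirely off, which goes against reading these cells as mature gastric epithelium. Of surface and neck mucous cell genes 1 of 14 was on, CTSE, an aspartic protease, at 3.83 and 5.0 FPKM. The surface mucin MUC5AC was at 0.02 and 0.01 FPKM, and the trefoil gene TFF1 at 0 and 0.17 FPKM. GKN1, a gastrokine, was listed at 0 in both libraries. Of chief, parietal and endocrine cell genes 0 of 14 were on: the pepsinogen genes PGC and PGA3, the lipase LIPF and the hormone genes GAST and SST were listed at 0, and the proton pump subunit gene ATP4A was at 0.02 and 0 FPKM.

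Intestinal genes were on in 1 of 21 cases, the factor CDX2 itself. Its classical downstream products were off, with CDH17 at 0 and 0.01 FPKM, MUC2 at 0.08 and 0.14 FPKM, VIL1 at 0.02 and 0.04 FPKM, and TFF3 and KRT20 listed at 0. Mucins were on in 3 of 17 cases. The membrane mucins MUC4, MUC16 and MUC1 were at 4.19 and 4.44 FPKM, at 1.77 and 1.28 FPKM and at 1.70 and 0.95 FPKM, and no gel-forming mucin was on. MUC1 was on in scramble 1 and below the line in scramble 2.

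Squamous and basal epithelial genes were on in 9 of 27 cases (33.3%). S100A2 and TP63 are described above. SERPINB5, a serpin of myoepithelial and basal cells, was at 66.9 and 68.8 FPKM. The keratins KRT6A and KRT5 were at 26.3 and 25.4 FPKM and at 23.0 and 23.7 FPKM, and KRT17 at 10.7 and 11.8 FPKM. KRT14, the usual partner of KRT5, was at 0.17 and 0.16 FPKM. The cornified envelope genes IVL, SPRR1A, SPRR1B, LOR and FLG and the desmosomal cadherin gene DSG3 were listed at 0 in both libraries. In RNA from a whole culture, a small number of cells with a high level and many cells with a low level cannot be told apart.

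Keratins were on in 11 of 54 cases, and the simple-epithelial ones dominated. KRT18 was at 2092 and 2131 FPKM and its partner KRT8 at 2031 and 2045 FPKM. KRT7, of ductal epithelia, was at 993 and 983 FPKM and KRT19 at 655 and 661 FPKM. These 4 genes held 92.6% of all keratin FPKM. The KRT18 mean was 90.5 times that of KRT5. KRT20, the intestinal and gastric keratin, was listed at 0.

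Keratin filaments form from type I and type II chains in equal number. Summed FPKM was 2774 and 2818 for the 28 type I keratins and 3460 and 3472 for the 26 type II keratins, so type II transcripts exceeded type I in both libraries. KRT80, a type II keratin outside the simple-epithelial set, was at 80.8 and 81.0 FPKM. KRT81, a hair keratin, was at 304 and 311 FPKM and was the sole hair keratin on, of 17. Its close copy KRT86 was at 0.07 and 0.12 FPKM, and since reads that fit several genes were split between them, both values are uncertain, as are those of KRT6A, KRT6B and KRT6C. The 11 type I hair keratins were all off, with KRT34 the highest at 0.42 and 0.38 FPKM.

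**Figure D4:**
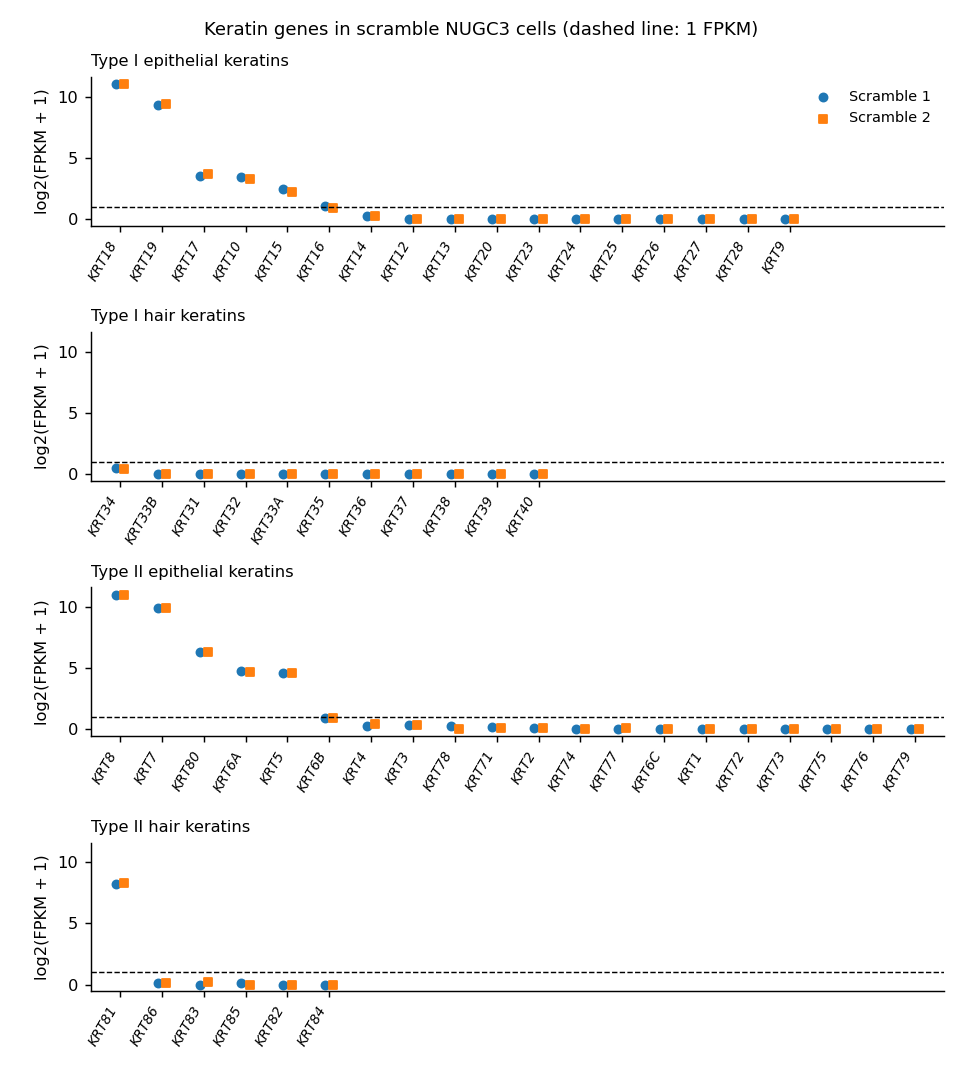
Each keratin gene has a point per scramble library, with log2(FPKM + 1) on the vertical axis and genes in columns ordered by level within 4 classes; the dashed line is 1 FPKM. KRT18, KRT8, KRT7 and KRT19 lie between 9 and 12, KRT81 is the hair keratin above the line, and most other keratins lie at or near 0.

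Of the other intermediate filament genes 7 of 15 were on, led by the lamin genes, whose products line the nucleus. LMNA was at 232 and 239 FPKM, LMNB2 at 101 and 94.7 FPKM and LMNB1 at 83.0 and 85.8 FPKM. Vimentin, the filament of mesenchymal cells, lay at the line, with VIM at 1.17 and 1.00 FPKM. The mean of KRT18 was 1946 times that of VIM. Desmin (DES) and GFAP were listed at 0.

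Adhesion genes were led by those of junctions, integrins and laminins. Of 22 cadherins 3 were on. E-cadherin (CDH1), which holds epithelial cells together, was at 56.0 and 54.2 FPKM, and P-cadherin (CDH3), of basal layers, was nearly level with it at 49.0 and 48.0 FPKM. The third was CDH24, at 2.39 and 2.12 FPKM. N-cadherin (CDH2), of mesenchymal and neural cells, was at 0.08 and 0.11 FPKM. The catenins that tie cadherins to actin stood higher than CDH1: CTNNB1 at 200.49 and 204.51 FPKM, CTNNA1 at 128 and 130 FPKM, CTNND1 at 98.8 and 97.7 FPKM and JUP at 95.8 and 99.05 FPKM. The neural catenins CTNNA2 and CTNND2 were listed at 0. Of the whole adherens junction list 10 of 13 genes were on (76.9%).

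Desmosome genes were on in 9 of 15 cases. Those on included DSG2 at 52.0 and 52.5 FPKM, DSC2 (picked after its value was seen) at 3.56 and 3.92 FPKM, the plaque protein desmoplakin (DSP) at 52.5 and 52.9 FPKM and the plakophilin PKP3 at 101 and 101 FPKM. The plakin genes PPL and EVPL, which also serve the cornified envelope of stratified epithelium, were on at 19.2 and 19.5 FPKM and at 14.01 and 13.34 FPKM. DSG1, DSG3, DSC1, DSC3 and PKP1, best known from stratified epithelium, were off, with 0.09 FPKM as the highest value among them in either library.

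Tight junction scaffold genes were on in 12 of 16 cases (75.0%), among them F11R at 48.8 and 58.7 FPKM, TJP1 at 45.6 and 45.9 FPKM and occludin (OCLN) at 19.2 and 18.9 FPKM. Claudins, the strands of the tight junction, were on in 8 of 24 cases. CLDN6, a claudin of embryonic epithelia, was the highest at 147 and 149 FPKM. CLDN7 and CLDN4 were at 93.4 and 93.9 FPKM and at 80.0 and 80.5 FPKM, and CLDN1 at 59.9 and 58.0 FPKM. CLDN18, whose stomach isoform marks gastric epithelium and is an antibody target in gastric cancer, was at 0.02 and 0.05 FPKM.

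Genes of the hemidesmosome integrin and of its matrix ligand were on together. Integrins were on for 7 of 18 alpha and 6 of 8 beta subunits. ITGA6, the alpha subunit of the hemidesmosome integrin, was at 291 and 299 FPKM, and ITGB4, its beta partner, at 97.3 and 97.0 FPKM. COL17A1, the collagen of hemidesmosomes, was lower, at 9.34 and 11.1 FPKM. ITGB1, the common partner of many alpha subunits, was at 325 and 319 FPKM, and ITGA3, its laminin-binding partner, at 151 and 154 FPKM. Of subunits best known from leukocytes, ITGAM, at 0.06 and 0.03 FPKM, and ITGAX, listed at 0, were off. ITGAE, whose integrin binds E-cadherin, was on at 46.7 and 46.6 FPKM and ITGB2 at 2.87 and 2.12 FPKM. ITGB7, the beta partner of ITGAE in that integrin, was off, at 0.15 and 0.05 FPKM. Laminin subunits were on in 8 of 12 cases. Among them LAMB3 and LAMA3, chains of the basement membrane ligand of the ITGA6 and ITGA3 integrins, were at 217 and 214 FPKM and at 44.8 and 46.9 FPKM.

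Other matrix genes were on in 19 of 29 cases (65.5%). Fibronectin (FN1), often taken as a mesenchymal product, was at 850 and 903 FPKM. THBS1 was at 86.6 and 82.6 FPKM, agrin (AGRN) at 79.5 and 78.1 FPKM and perlecan (HSPG2) at 50.1 and 49.8 FPKM. Among other surface adhesion genes, 21 of 30 on (70.0%), the hyaluronan receptor CD44 was at 365 and 376 FPKM, BSG at 292 and 284 FPKM, the tetraspanin CD9 at 256 and 264 FPKM and the epithelial marker EPCAM at 210 and 209 FPKM. Leukocyte-binding VCAM1, at 0.02 and 0 FPKM, and the neural gene NCAM1, at 0.01 and 0.07 FPKM, were off, as were CEACAM1, at 0.23 and 0.48 FPKM, and CEACAM5, at 0.25 and 0 FPKM, both of gut epithelium. L1CAM, another neural adhesion gene, was on at 48.8 and 44.1 FPKM, and MCAM at 51.0 and 41.1 FPKM (both picked after their values were seen).

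In collagens I, IV, V and VI, 1 chain was off while a chain it assembles with was on. Collagen IV is built mainly from COL4A1 and COL4A2 chains, whose genes lie head to head on chromosome 13 and are read outward from a shared promoter. COL4A1 was at 82.8 and 81.3 FPKM, while COL4A2 was at 0.09 and 0.18 FPKM, the single off gene of 6 collagen IV genes. The annotation and strand setting behind the table are not known here, and the COL4A2 value was not checked in reads. Likewise COL1A1 was at 6.57 and 5.75 FPKM and its partner COL1A2 was listed at 0. COL6A1 and COL6A2 were at 64.6 and 64.8 FPKM and at 46.1 and 46.1 FPKM with COL6A3 at 0.09 and 0.08 FPKM. COL5A1 was at 2.41 and 2.64 FPKM with COL5A2 at 0.18 and 0.19 FPKM, genes picked after their values were seen. The 126 bases between the RefSeq starts of COL4A1 and COL4A2 are shown because 1 short stretch lies between the starts of the gene listed high and the gene listed low. They lie at chr13:110307158-110307283 (GRCh38.p14, plus strand), where COL4A1 is read to the left and COL4A2 to the right. Capitals mark the single CCAAT and the single GGGCGG of the stretch, letters searched on both strands that CCAAT-binding and SP factors are known to bind, and 80.2% of its bases are G or C.
COL4A1 to COL4A2: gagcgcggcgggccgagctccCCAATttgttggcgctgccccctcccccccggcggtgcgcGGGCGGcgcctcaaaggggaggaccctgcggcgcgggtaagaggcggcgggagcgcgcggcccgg

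Levels were also set side by side for other genes that start near each other. By GENCODE 29 gene order there were 674 head-to-head pairs of protein-coding genes with starts at most 1 kb apart. Both genes were on in 457 pairs (67.8%), 1 was on and 1 off in 174 (25.8%), and both were off in 43 (6.38%). Members of these pairs were on in 80.7% of cases, above the 56.2% of all genes, and that share alone would give 65.1% of pairs with both on. Of 378 pairs with a gene at 20 FPKM or more, 66 (17.5%) had the other gene off. With 80.7% of all pair members on, that is near the share of members off, so it does not set these pairs apart. Examples, picked after their values were seen, were the actin-bundling gene LCP1 at 303 and 310 FPKM beside LRRC63, listed at 0, and the MHC class I light chain gene B2M at 786 and 777 FPKM beside PATL2 at 0.22 and 0.18 FPKM. LCP1 is best known as a leukocyte gene.

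Receptor tyrosine kinases, which pass growth factor signals into the cell, were on in 27 of 58 cases (46.6%), and their ligands in 29 of 76 (38.2%). EPHA2, an ephrin receptor, was the highest kinase receptor at 185 and 181 FPKM. AXL, a receptor for GAS6, was at 98.4 and 98.8 FPKM, and DDR1, a collagen receptor of epithelia, at 91.6 and 99.1 FPKM. MET, the receptor of hepatocyte growth factor, was at 68.3 and 68.4 FPKM. EGFR was at 60.8 and 58.5 FPKM, and its mean was 4.14 times that of ERBB2, at 14.5 and 14.4 FPKM. ERBB4, at 0.03 and 0.03 FPKM, PDGFRA, at 0.08 and 0.07 FPKM, and all 5 receptors of the PDGF receptor and KIT family were off.

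Several of these receptors had a ligand on in the same cells. Of 11 EGF family ligands 5 were on, led by HBEGF at 175 and 179 FPKM and TGFA at 132 and 131 FPKM, while EGF itself was at 0.46 and 0.39 FPKM. The HBEGF mean was 416 times the EGF mean. GAS6, the ligand of AXL, was at 116 and 117 FPKM, and EFNA1, a ligand of EPHA2, at 31.4 and 30.6 FPKM. HGF, the ligand of MET, was listed at 0 in both libraries. VEGFA, which drives blood vessel growth, was at 104 and 102 FPKM. Of 3 VEGF receptors 1 was on, FLT1 (picked after its value was seen), at 5.97 and 4.23 FPKM. The endothelial receptor KDR was at 0.01 and 0 FPKM. PDGFA and PDGFB were at 17.5 and 16.8 FPKM and at 20.6 and 21.6 FPKM with no PDGF receptor on, a pair of ligands picked after their values were seen. Of 22 FGF ligands 2 were on, with 3.69 FPKM as the higher mean.

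WNT receptors and co-receptors were on in 12 of 17 cases (70.6%), including 8 of 10 Frizzled genes, with FZD6 at 35.6 and 35.0 FPKM and LRP5 at 18.5 and 19.6 FPKM. WNT ligands were on in 5 of 19 cases, R-spondins in 0 of 4 and secreted WNT inhibitors in 1 of 12. WNT7B and WNT10A led the ligands at 10.1 and 11.3 FPKM and at 8.07 and 8.15 FPKM. LGR5, the stem cell receptor for R-spondins, was listed at 0, while LGR4 was at 14.3 and 14.8 FPKM. RNF43, which removes Frizzled receptors from the surface, was at 0.23 and 0.15 FPKM, and its relative ZNRF3 was at 3.92 and 4.0 FPKM (picked after its value was seen).

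Notch signalling had receptors and ligands on together, with NOTCH2 at 18.7 and 18.1 FPKM, NOTCH1 at 7.43 and 7.89 FPKM and the ligand JAG1 at 57.2 and 57.0 FPKM. The Hedgehog genes were mostly off. The signal transducer SMO was at 0.03 and 0.05 FPKM, the target factor GLI1 at 0.01 and 0 FPKM and SHH at 0.55 and 0.75 FPKM, with PTCH1 on at 1.77 and 1.29 FPKM. TGF-beta family receptors were on in 10 of 14 cases (71.4%), with TGFBR1 at 15.3 and 15.2 FPKM and TGFBR2 at 12.8 and 12.9 FPKM. Their ligands were on in 11 of 33 cases, and INHBA, the activin A subunit, exceeded all others at 415 and 404 FPKM. TGFB1, next to it, was at 26.0 and 26.5 FPKM.

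**Figure D5:**
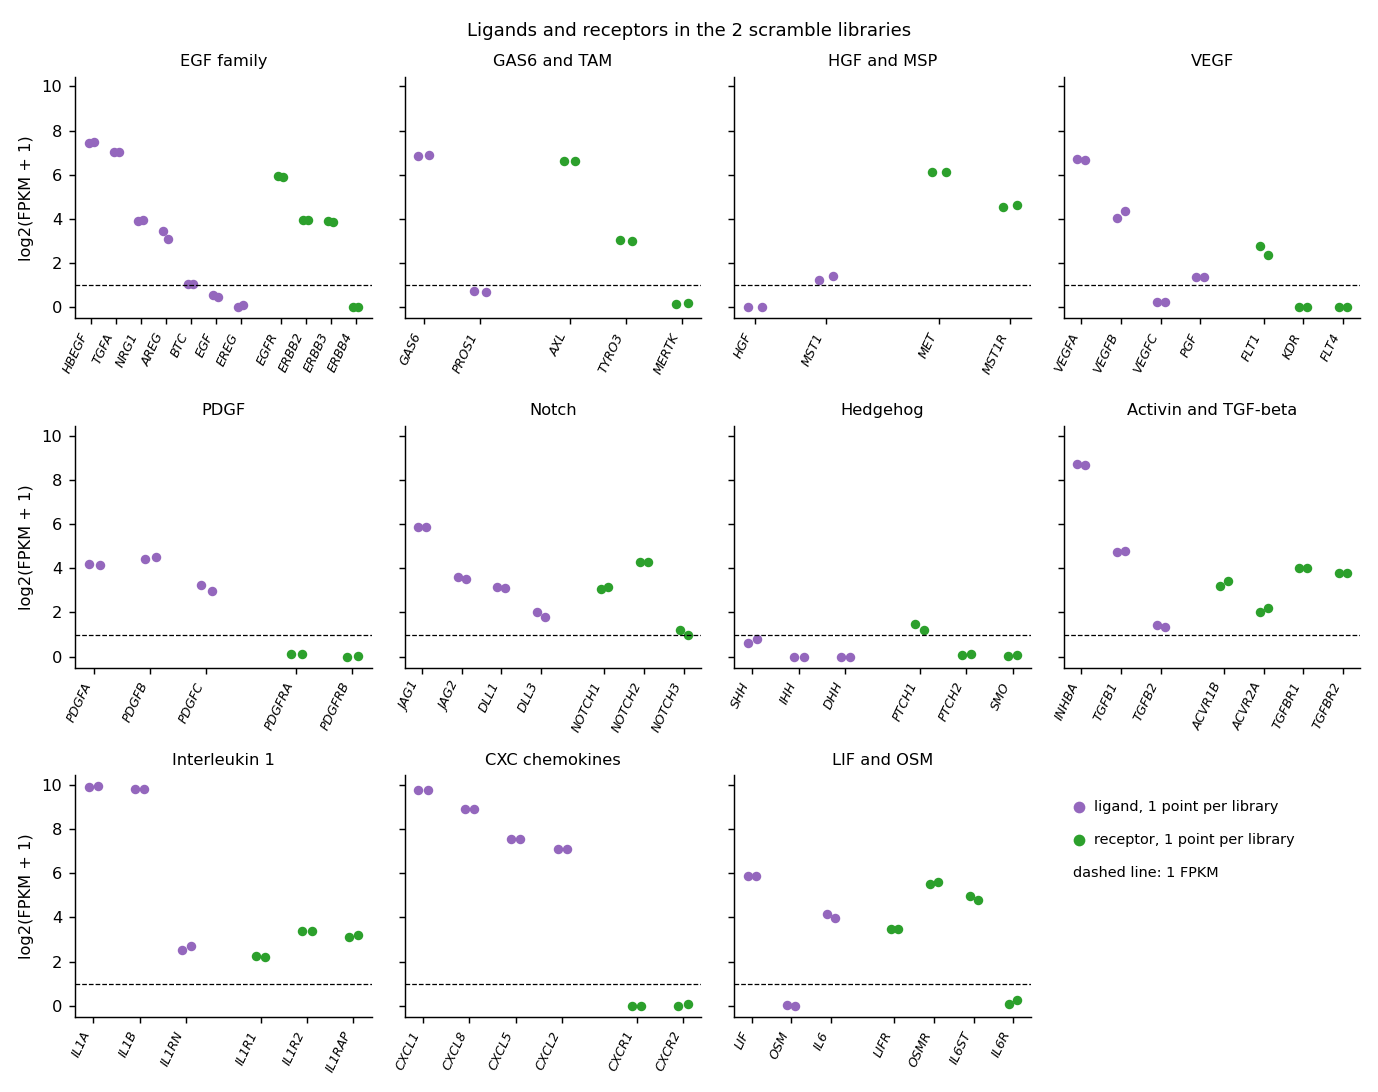
Ligands (purple) and receptors (green) of 11 signalling groups, chosen after their values were seen, are shown with a point per scramble library and log2(FPKM + 1) on the vertical axis; the dashed line is 1 FPKM. HGF lies at 0 with MET high, the CXC chemokines are high with CXCR1 and CXCR2 at or near 0, and the EGF family has ligands and receptors above the line.

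Inflammatory signals included several of the most abundant secreted factors. Chemokines attract leukocytes, and those with a Glu-Leu-Arg motif, such as CXCL1 and CXCL8, call neutrophils through CXCR1 and CXCR2. Chemokines were on in 10 of 39 cases (25.6%), yet their summed level was 2070 and 2108 FPKM, nearly all from a few genes. The promoter letters of 6 chemokine genes on and 1 close relative off are shown first, because these genes share a short element and differ widely in level. Each line gives the 110 bases before the RefSeq start in GRCh38.p14, read in the direction of the gene. Capitals mark GGNNTTTCC, on either strand, letters of the kind that NF-kappaB factors are known to bind. The windows are chr4:73869283-73869392 (plus strand) for CXCL1, chr4:74099196-74099305 (minus) for CXCL2, chr4:74038690-74038799 (minus) for CXCL3, chr4:73998678-73998787 (minus) for CXCL5, chr4:73836568-73836677 (plus) for CXCL6, chr4:73740459-73740568 (plus) for CXCL8 and chr2:227813732-227813841 (plus) for CCL20.
CXCL1: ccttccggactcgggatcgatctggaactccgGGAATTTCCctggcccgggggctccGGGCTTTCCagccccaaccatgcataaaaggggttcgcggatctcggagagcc
CXCL2: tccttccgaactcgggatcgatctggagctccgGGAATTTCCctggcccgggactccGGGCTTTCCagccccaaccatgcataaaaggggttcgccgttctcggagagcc
CXCL3: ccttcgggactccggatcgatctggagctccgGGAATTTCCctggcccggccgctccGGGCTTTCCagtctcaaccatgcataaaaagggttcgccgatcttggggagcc
CXCL5: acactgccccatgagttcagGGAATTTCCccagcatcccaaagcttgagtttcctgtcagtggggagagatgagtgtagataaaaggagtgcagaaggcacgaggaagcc
CXCL6: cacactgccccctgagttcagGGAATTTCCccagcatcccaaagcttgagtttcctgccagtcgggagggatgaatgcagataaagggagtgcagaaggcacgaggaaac
CXCL8: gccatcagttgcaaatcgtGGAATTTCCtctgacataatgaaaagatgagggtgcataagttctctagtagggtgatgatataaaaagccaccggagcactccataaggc
CCL20: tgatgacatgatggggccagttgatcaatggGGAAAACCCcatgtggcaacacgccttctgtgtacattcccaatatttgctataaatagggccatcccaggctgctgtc

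CXCL1 was at 863 and 874 FPKM, CXCL8 at 474 and 484 FPKM and CXCL5 at 188 and 188 FPKM. CXCL2 and CXCL3 were at 137 and 137 FPKM and at 46.1 and 45.3 FPKM. CCL20, which attracts CCR6-bearing lymphocytes and dendritic cells, was at 318.5 and 331.8 FPKM. CXCL6 was off, at 0.05 and 0 FPKM, although its window was identical to that of CXCL5 at 101 of 111 aligned positions and holds the same element. The windows of CXCL1 and CXCL2 were identical at 104 of 111 aligned positions, and those of CXCL1 and CXCL3 at 99 of 110, while the CXCL1 mean exceeded both. The transcripts of CXCL1, CXCL2 and CXCL3 are also much alike, so reads may have been split between them.

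Over the 250 bases before the start, the element was found for 6 of the 7 chemokine genes on that had a promoter in the RefSeq table and for 3 of the 22 off. The 3 off were CXCL6, CXCL10, at 0.11 and 0.19 FPKM, and CXCL11, at 0.13 and 0.03 FPKM. CXCL1, CXCL2 and CXCL3, whose windows are much alike, are among the 6 on. Of all 21388 promoters searched in this way 5.77% held the element. The share ran from 5.12% for genes off to 7.54% at 100 FPKM or more. These shares are per promoter, whereas a chemokine gene was counted if any of its promoters held the element. The letters were chosen with these levels known, and a match does not show that a factor binds. TATAAA stood 16 to 45 bases before the start of CXCL8 and CCL20 and not in that window of CXCL1, CXCL2, CXCL3, CXCL5 or CXCL6.

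Cytokines were on in 18 of 45 cases (40.0%), headed by the interleukin-1 genes. IL1A was at 965 and 972 FPKM (mean 968 ± 4.90, SD, n = 2), which made it rank 100 of all protein-coding genes, and IL1B was at 884 and 894 FPKM. The interleukin-1 receptor antagonist gene IL1RN was at 4.72 and 5.49 FPKM, and the IL1A mean was 190 times that of IL1RN. The signalling receptor IL1R1 was at 3.73 and 3.65 FPKM and the decoy receptor IL1R2 at 9.28 and 9.27 FPKM. These 3 genes were picked after their values were seen. IL32 was at 139 and 140 FPKM, the IL-6 family cytokine LIF at 57.5 and 57.0 FPKM, the granulocyte-macrophage factor CSF2 at 36.4 and 34.7 FPKM and TNF at 29.1 and 32.4 FPKM. IL6 was at 16.7 and 14.9 FPKM.

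Receptors for these signals were uneven. Chemokine receptors were on in 3 of 23 cases (13.0%), and none of those 3 is a receptor for CXCL1 or CXCL8. They were the scavenger ACKR2 at 7.30 and 9.39 FPKM, CCR10 at 3.61 and 4.11 FPKM and CCRL2 at 2.31 and 2.56 FPKM. CXCR2 was at 0 and 0.05 FPKM, and CXCR1 (picked after its value was seen) was listed at 0. Cytokine receptors were on in 27 of 45 cases (60%), with IFNGR1 at 117 and 118 FPKM, OSMR at 45.0 and 47.6 FPKM and IL4R at 28.99 and 31.26 FPKM. Of death and TNF family receptors 14 of 22 were on, with TNFRSF12A, the TWEAK receptor, at 119 and 115 FPKM and the TRAIL receptor TNFRSF10B at 85.1 and 82.5 FPKM. Pattern recognition receptors were on in 9 of 19 cases. The DNA sensor CGAS was at 26.5 and 25.7 FPKM and its adaptor STING1 at 12.3 and 13.5 FPKM, while TLR4 was at 0.70 and 0.64 FPKM.

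Genes often altered in gastric cancer were on in 27 of 29 cases (93.1%). CCND1, which drives entry into the cell cycle, was at 446 and 442 FPKM, RHOA at 267 and 259 FPKM and CDKN2A at 60.5 and 61.7 FPKM. MYC, which encodes a growth-promoting transcription factor, was at 82.9 and 82.0 FPKM, and TYMS, which makes thymidylate and is the target of antifolate drugs, at 102 and 105 FPKM. FPKM gives the level of transcript and says nothing of mutation. The 2 members off were MUC6, at 0.17 and 0.49 FPKM, and RNF43.

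Surface proteins that are drug targets in gastric cancer were on in 10 of 17 cases (58.8%). CD47, which restrains phagocytosis, was at 64.3 and 70.4 FPKM. The checkpoint ligand CD274 was at 29.6 and 29.9 FPKM. ERBB2, the target of trastuzumab, was on at the level given above, and MSLN, FOLR1, CEACAM5, CLDN18, VTCN1, KDR and GUCY2C were off.

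Cancer-testis genes, silent in most adult tissue outside the germ line, were on in 10 of 34 cases, some at high levels. MAGEA4 was at 309 and 306 FPKM and MAGEB2 at 146 and 147 FPKM, with XAGE1A at 138 and 118 FPKM and MAGEA1 at 105 and 102 FPKM. Of 11 MAGEA genes 6 were on. MAGEA2 and MAGEA2B, at 18.3 and 23.2 FPKM and at 11.7 and 8.16 FPKM, and MAGEA3 and MAGEA6, at 3.59 and 4.15 FPKM and at 87.7 and 84.9 FPKM, are near-identical copies whose values are uncertain, MAGEA3 being named after its value was seen. MAGEC2 was off at 0.28 and 0.38 FPKM.

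Most markers of other cell types were off. The pan-leukocyte gene PTPRC, CD4 and CD79A were listed at 0, and of 18 leukocyte markers CD68 alone was on, at 12.4 and 17.1 FPKM. Of 8 endothelial markers none was on, and of 12 fibroblast and smooth muscle markers 2 were, COL1A1 and ACTA2, the latter at 0.85 and 1.23 FPKM. The fibroblast genes COL3A1, DCN and LUM were listed at 0. The summed level was 14.2 and 18.6 FPKM for leukocyte, 1.2 and 0.81 FPKM for endothelial and 7.80 and 7.57 FPKM for fibroblast and smooth muscle markers. Neuronal and muscle markers were on in 3 of 12 cases, with the tubulin gene TUBB3 at 31.3 and 28.7 FPKM, RBFOX3 at 3.88 and 2.94 FPKM and SYT1 at 1.70 and 1.47 FPKM, and of erythroid and hepatocyte markers SERPINA1 alone was on, at 5.19 and 5.57 FPKM.

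Promoter letters were compared over level classes for the 15142 protein-coding genes with a RefSeq promoter. GGGCGG, searched on both strands over the 250 bases before the start, was in 36.8% of promoters of genes off, in 61.5% of those from 1 to 10 FPKM, in 66.6% from 10 to 100 FPKM and in 65.5% at 100 FPKM or more, against 54.4% of all promoters. The median share of G and C was 56.4% for genes off and between 64.0% and 65.2% in the classes on. The core element TATAAA, 16 to 45 bases before the start, was in 5.74% of promoters of genes off, 1.498% from 1 to 10 FPKM, 1.09% from 10 to 100 FPKM and 3.54% at 100 FPKM or more, against 3.03% of all promoters. TATAAA was thus more frequent at both ends of the level scale than in the middle, while CCAAT varied little, from 31.6% in genes off to 37.2% at 100 FPKM or more.

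Some list members lay so near 1 FPKM that on and off have little meaning for them. Just above it were CLDN20, at 1.03 and 0.98 FPKM, IL22RA1, at 1.13 and 0.88 FPKM, NR5A2, at 1.21 and 0.81 FPKM, and SERPINB13, at 0.80 and 1.24 FPKM. Just below it were PDX1, KRT16, at 1.05 and 0.91 FPKM, IL12A, at 0.99 and 0.87 FPKM, and ACVR1C, at 0.88 and 0.90 FPKM.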

How the data were processed

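The deposited table holds 1 FPKM value per gene and library, which the authors made from RNA sequencing reads. STAR, a read aligner, and RSEM, which splits reads that fit several genes, are listed without a version, per the submitters' processing notes. The build, like the annotation and strand setting, is not given in the sources used here. Therefore overlapping and antisense genes cannot be told apart. Levels are means of the 2 scramble libraries, computed from the deposited FPKM in Python 3.11.15 with pandas 2.3.3 and numpy 2.4.6, and plots were drawn with matplotlib 3.10.9. Summaries were tested on simulated data. Differences between libraries are on the log2(FPKM + 1) scale. Of 1143 list entries, 1125 matched by identifier and 13 by the table's symbol, and NR2E3, NEFL, CD24, PECAM1 and MAGEA9B had no row of their own. The deposited symbols include 29 in the form of a date. Promoters are RefSeq's for GRCh38.p14, matched by symbol for 15142 of 20269 genes, some with several. GENCODE 29 was used for gene order only, since its build may differ from that of the files.

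Members and lists were chosen with earlier results of these data known. Genes named are the 30 highest, up to 8 members on and 8 off of each list, the 4 list members on each side of 1 FPKM, the 6 that differed most between libraries at a mean of 5 FPKM or more, and NIPBL, TYMS and MYC. Some genes that this rule chose are not reported here. Alternatives were thresholds of 0.5, 2 and 5 FPKM, both libraries on, rescaling to TPM, each library alone, other totals and a pseudocount of 0.1.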

Additional observations from a re-analysis of the deposited data

How the results depend on the processing

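The count of protein-coding genes on stayed within 1.5 times of 11391 under every alternative tried: 12034 at 0.5 FPKM, 10674 at 2 FPKM, 9116 at 5 FPKM, 11262 with both libraries on and 11684 after rescaling to TPM. With either library alone it was between 11388 and 11403. Of the 1069 list genes 295 were on at 5 FPKM, against 452 at 1 FPKM, and 21 of the 50 lists then moved by over 1.5 times. Lists moved so in 4 cases at 0.5 FPKM, 6 at 2 FPKM (mesenchymal transition factors went from 4 to 2 on), 2 without scramble 2, 0 without scramble 1 and 1 each with both libraries on and after rescaling. Lists above the share of all genes numbered 16, and 19, 13 and 12 at 0.5, 2 and 5 FPKM. The 100 highest genes held 33.1% of FPKM with all rows as the total and 32.5% without mitochondrially encoded genes, against 37.5%. The SD of the log2 difference was 0.24 with a pseudocount of 0.1. No paired analysis was possible because there is 1 group. Protein length by level was not run. Depth is unknown, so 0 means listed at 0, and with 2 libraries that may be repeats the spread may understate that between cultures.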
